A study of Arabidopsis thaliana with 18 samples.

Results

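In roots of wild-type Arabidopsis, 51 genes had their lowest mean level in untreated low-phosphate roots, and with either isomer of the cytokinin zeatin, given for 8 h, they stood higher again in low phosphate. The genes were chosen from these measured values. Levels were in CPM (a gene's count scaled to a common library total), and groups were compared as log2(mean CPM + 1). A gene was kept when its mean reached 5 CPM in at least 1 of the groups low phosphate with trans-zeatin, low phosphate with cis-zeatin, low phosphate alone and full phosphate alone. Its level in untreated low-phosphate roots also had to be lower than in untreated full-phosphate roots by at least 1 on the log2 scale, and trans-zeatin and cis-zeatin each had to put it at least 0.58 above untreated low-phosphate roots. Of 37037 entries 15841 reached 5 CPM, 381 of these were lowered, and 51 of the lowered ones met the whole rule (13.4% of 381). All 51 are annotated as protein coding. These 3 contrasts are therefore given as a description, without a test.

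Roots of Col-0 seedlings grown for 8 days in Murashige and Skoog medium were profiled by poly(A) RNA-seq, with 3 libraries in each of 6 groups. Low phosphate was 5 µM, in medium that the sample labels call without phosphate, and it was combined with 5 µM trans-zeatin for 8 h, with 5 µM cis-zeatin for 8 h, or with no zeatin. Full phosphate was 625 µM, with the same 3 hormone states. All plants carry the wild-type genome, the samples are whole roots, and no solvent treatment is named for the untreated groups; whether the replicates came from separate cultures is not stated, so p-values measure the spread between these libraries, which may be technical.

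Cytokinins are adenine-derived hormones that signal through membrane histidine kinases and phosphotransfer proteins to nuclear response regulators. Type-B regulators switch on target genes, among them the type-A regulators, which damp the signal, and the cytokinin oxidases, which destroy the hormone. Trans-zeatin is the classical active form, whereas cis-zeatin, with the hydroxyl group on the other side of the double bond, is usually described as the weaker one. Phosphate-starved roots are known to lower cytokinin content and signalling while they switch on phosphate scavenging.

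Libraries held 20839562 to 21871669 counted reads of 50 bases. The 10 root tissue markers, among them PYK10, SHR and CASP1, were detected in every library, with summed levels of 21255 to 26137 CPM in low-phosphate trans-zeatin roots, 24271 to 25360 CPM in low-phosphate cis-zeatin roots, 15555 to 16125 CPM in untreated low-phosphate roots, 30826 to 32666 CPM in full-phosphate trans-zeatin roots, 32352 to 34201 CPM in full-phosphate cis-zeatin roots and 20901 to 25726 CPM in untreated full-phosphate roots. PYK10, a beta-glucosidase of endoplasmic reticulum bodies, made up nearly all of that sum, with group means of 14975 CPM in untreated low-phosphate and 23003 CPM in untreated full-phosphate roots. Some other markers were higher in untreated low than in untreated full phosphate: the root hair genes EXP7 and COBL9 averaged 104 and 122 CPM in untreated low-phosphate roots, against 31.1 and 46.7 CPM in untreated full-phosphate roots. The part of these markers in the values of the 51 genes was not tested. The sum of 21 photosynthesis and greening genes was 53.9 to 60.8 CPM in low-phosphate trans-zeatin roots, 43.5 to 48.8 CPM in low-phosphate cis-zeatin roots, 41.5 to 56.2 CPM in untreated low-phosphate roots, 197 to 263 CPM in full-phosphate trans-zeatin roots, 92.6 to 96.3 CPM in full-phosphate cis-zeatin roots and 94.9 to 143 CPM in untreated full-phosphate roots. At most 3 of the 21 were at 0 in a library. The part of these genes in the results was not tested either. In such bulk samples, fewer cells of a type and less RNA per cell cannot be told apart. Replicates were also compared by the chi-square per degree of freedom of their counts, and 2 libraries stood apart from their own replicates. The second low-phosphate cis-zeatin library gave 30.7 and 28.4 against its replicates, which gave 4.26 against each other, and the second low-phosphate trans-zeatin library 20.7 and 13.6, against 6.96 between the other two. Without that cis-zeatin library 49 genes met the rule, and without that trans-zeatin library 51 did.

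Promoters of 5 of the genes are shown because their products stand at named steps of cytokinin or sugar-phosphate metabolism or because the isomers differed most on them; each is the 250 bases before the annotated gene start, read 5′ to 3′ on the gene's strand from the RefSeq annotation of TAIR10.1 (the deposited files give no coordinates). They lie at chr1:6579315-6579564 on the minus strand for ARR7, chr1:25065447-25065696 on the minus strand for CYP735A2, chr4:14565933-14566182 on the plus strand for CKX4, chr4:18451306-18451555 on the minus strand for TPPH and chr2:6946846-6947095 on the plus strand for AT2G15960. Capitals mark matches, on either strand, to 8 short motifs that were searched. GNATATNC is the phosphate-starvation element bound by PHR1, and CACGTG is the G-box, with CACGTC as its relative. Strings of the kind bound by type-B response regulators were AAGATC, the similar AGATTT, and the longer AGATACG. AAAATATCT is the evening element of clock-regulated genes, and GATAAG the I-box.
ARR7: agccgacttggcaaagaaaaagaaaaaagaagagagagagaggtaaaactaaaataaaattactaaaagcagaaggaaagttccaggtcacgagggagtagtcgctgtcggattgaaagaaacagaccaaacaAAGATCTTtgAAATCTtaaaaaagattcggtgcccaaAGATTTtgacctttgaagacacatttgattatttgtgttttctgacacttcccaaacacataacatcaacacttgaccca
CYP735A2: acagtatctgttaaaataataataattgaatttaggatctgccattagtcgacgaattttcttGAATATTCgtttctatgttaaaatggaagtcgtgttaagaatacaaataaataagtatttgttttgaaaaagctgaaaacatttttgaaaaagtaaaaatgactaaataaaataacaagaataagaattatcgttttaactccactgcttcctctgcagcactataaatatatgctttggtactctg
CKX4: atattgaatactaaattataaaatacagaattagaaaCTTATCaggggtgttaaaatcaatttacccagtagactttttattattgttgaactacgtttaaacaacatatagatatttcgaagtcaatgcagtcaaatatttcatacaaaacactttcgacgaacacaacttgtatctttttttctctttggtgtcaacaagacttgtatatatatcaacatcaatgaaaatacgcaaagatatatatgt
TPPH: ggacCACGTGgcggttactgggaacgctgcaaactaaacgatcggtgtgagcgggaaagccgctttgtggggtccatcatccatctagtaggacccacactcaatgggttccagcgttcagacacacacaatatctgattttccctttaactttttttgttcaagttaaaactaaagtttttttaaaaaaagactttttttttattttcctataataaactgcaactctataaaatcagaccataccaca
AT2G15960: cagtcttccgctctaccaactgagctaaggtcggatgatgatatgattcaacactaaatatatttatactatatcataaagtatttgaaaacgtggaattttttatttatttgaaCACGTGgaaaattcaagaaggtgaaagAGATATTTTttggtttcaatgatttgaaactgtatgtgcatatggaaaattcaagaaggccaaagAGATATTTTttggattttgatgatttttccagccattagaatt

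The ARR7 promoter holds AAGATC 117 bases before the start and, overlapping it on the other strand, again at 115 bases, and AGATTT at 107 and 80 bases. In CYP735A2 the run GAATATTC, which fits GNATATNC, begins 187 bases before the start. CKX4 has a single marked run in the printed stretch, GATAAG on the other strand 213 bases before the start, and TPPH a single G-box at 246 bases. AT2G15960 carries a G-box at 135 bases and the evening element at 108 and 43 bases. Such matches describe letters, not sites.

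Over 300-base windows (250 before to 50 after the start), the 51 genes were compared with 27443 annotated promoters of the same length. CACGTG was present in 8 of the 51 (15.7%, against 7.68% of all promoters), namely AT2G16005, GDH1, CKX4, AT1G49450, TPPH, AT2G15960, LSU3 and AT2G47010. In CKX4 and AT1G49450 the match lies after the start, outside the 250 bases before it. GNATATNC was present in 5 (9.8%, against 6.25%), namely LAC7, TDT, CYP735A2, AT3G15356 and AT1G35830. The response-regulator string AAGATC and the I-box were each present in 10 (19.6%), against 14.7% of all promoters for AAGATC and 14.6% for the I-box. Shares for the remaining strings were 33.3%, against 38.8% of all promoters, for AGATTT, and 7.84% against 6.98% for the relative of the G-box. They were 3.92% against 2.82% for the evening element and 1.96% against 2.04% for AGATACG. No test was made of these shares.

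By the rule, the 51 genes were lower in low phosphate and higher with both zeatins. Summed over the 51 genes, the libraries held 3678 to 4377 CPM in low-phosphate trans-zeatin roots, 3620 to 3890 CPM in low-phosphate cis-zeatin roots and 1487 to 1529 CPM in untreated low-phosphate roots, against 4092 to 4692 CPM in untreated full-phosphate roots. The median difference between untreated low-phosphate and untreated full-phosphate roots was -1.37 (log2), with a range of -4.14 to -1.01; of all 15841 genes at 5 CPM or more, 2.41% were lowered by at least 1. The median gain over untreated low-phosphate roots was 1.29 with trans-zeatin (0.63 to 3.78) and 1.11 with cis-zeatin (0.58 to 3.61). Among all genes at that level 5.3% gained at least 0.58 with trans-zeatin, 4.94% with cis-zeatin and 4.12% with both. Of the other lowered genes, 30 gained 0.58 with trans-zeatin only, 2 with cis-zeatin only and 298 with neither. All 3 libraries of a group lay apart from all 3 of the other in 51 of 51 genes for trans-zeatin against untreated low-phosphate roots, in 50 of 51 for cis-zeatin against untreated low-phosphate roots, and in 51 of 51 for untreated low-phosphate against untreated full-phosphate roots. The selection itself fixed these differences, so nothing is read from them.

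**Figure D1:**
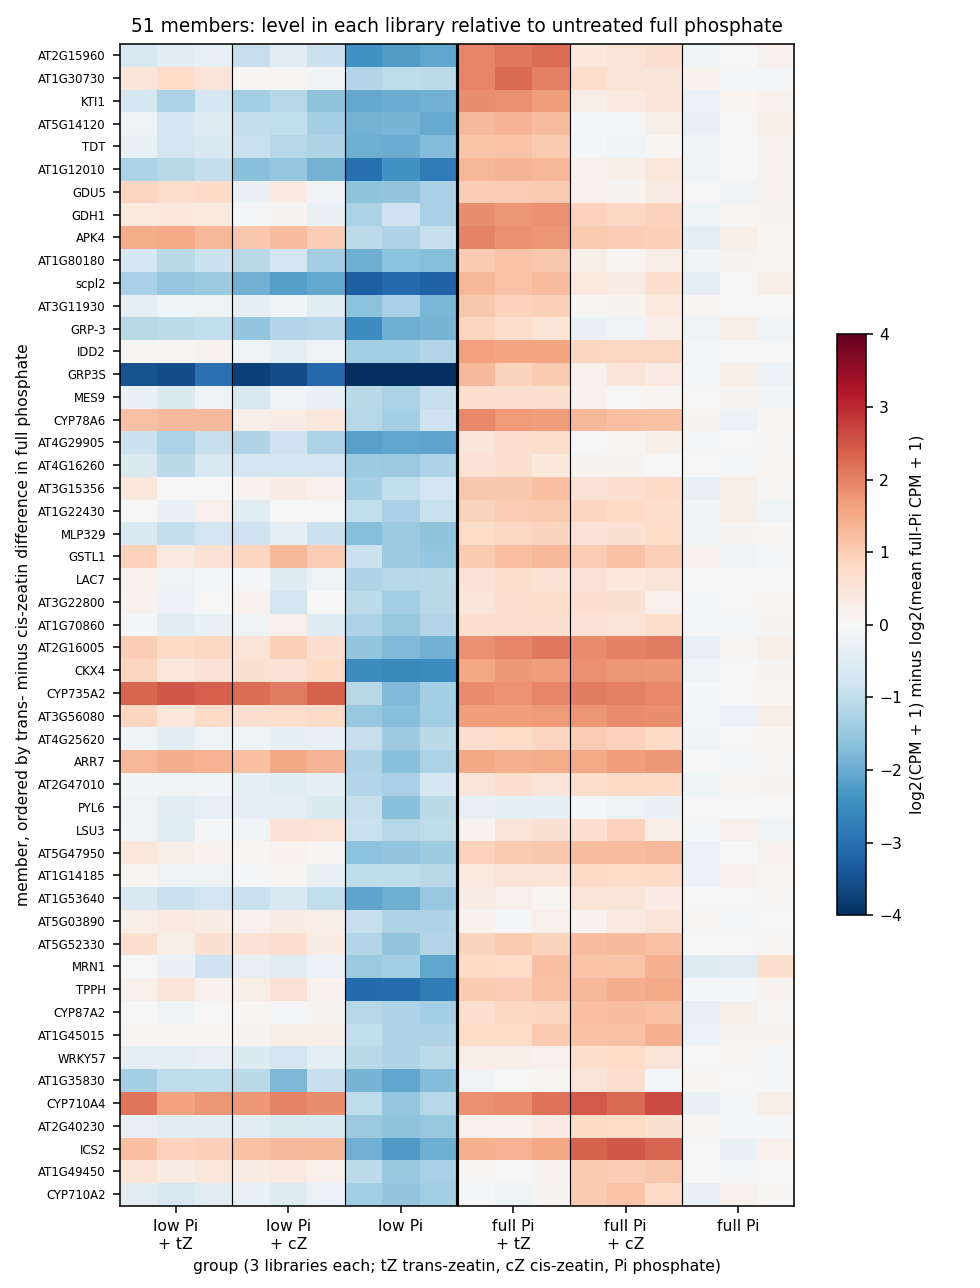
Level of each of the 51 genes in each of the 18 libraries, with genes in rows and libraries in columns, coloured by log2(CPM + 1) minus that of the gene's mean in untreated full phosphate. Every gene has its lowest group mean in untreated low phosphate, and 49 of 51 have their highest in full phosphate with a zeatin.

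The group holds genes for the making of cytokinin, its breakdown and the damping of its signal. CYP735A2, the cytochrome P450 that hydroxylates the isopentenyl side chain to make trans-zeatin, had 307, 340 and 317 CPM with trans-zeatin and 284, 258 and 313 CPM with cis-zeatin in low phosphate, against 27.2, 17 and 23.2 CPM in untreated low-phosphate roots. In full phosphate it had 224, 211 and 234 CPM with trans-zeatin and 258, 245 and 233 CPM with cis-zeatin, against 58.1, 59.4 and 63.0 CPM in untreated roots. All 12 zeatin libraries were above all 6 untreated ones, and the low-phosphate trans-zeatin libraries were the highest with 1 exception, a low-phosphate cis-zeatin library at 313 CPM. CYP735A2 was the only gene of the 51 whose highest group mean was in low phosphate.

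CKX4, a cytokinin oxidase that cleaves the side chain off the hormone, had 82.6, 61.8 and 67.6 CPM with trans-zeatin and 68.9, 68.1 and 78.9 CPM with cis-zeatin in low phosphate, against 6.97, 6.63 and 7 CPM in untreated low-phosphate roots. Its full-phosphate libraries had 133, 150 and 146 CPM with trans-zeatin and 163, 155 and 152 CPM with cis-zeatin, against 41.0, 45.4 and 48.1 CPM without zeatin. The order was full phosphate with zeatin, low phosphate with zeatin, full phosphate alone, low phosphate alone, with no overlap between these 4 steps and overlap between the isomers only in low phosphate.

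ARR7, a type-A response regulator that dampens cytokinin signalling, had 64.6, 70.7 and 68.3 CPM with trans-zeatin and 59.3, 76.3 and 66.2 CPM with cis-zeatin in low phosphate, against 10.3, 7.19 and 9.88 CPM in untreated low-phosphate roots. With full phosphate the values were 76.3, 69.5 and 72.0 CPM under trans-zeatin and 74.8, 83.5 and 85.7 CPM under cis-zeatin, against 25.3, 24.4 and 26.1 CPM in untreated roots. Zeatin-treated libraries overlapped across isomer and phosphate for this gene and lay well above every untreated library.

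TPPH, a trehalose-phosphate phosphatase, which removes the phosphate from the sugar signal trehalose 6-phosphate, had 31.3, 39.4 and 30.5 CPM with trans-zeatin and 32.7, 40.7 and 29.8 CPM with cis-zeatin in low phosphate, against 2.26, 2.32 and 2.98 CPM in untreated low-phosphate roots. Full-phosphate libraries held 56.8, 54.8 and 61.7 CPM with trans-zeatin and 69.4, 75.8 and 80.0 CPM with cis-zeatin, against 25.5, 26.1 and 29.6 CPM without zeatin. In low phosphate both isomers thus returned TPPH to slightly above its untreated full-phosphate level.

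**Figure D2:**
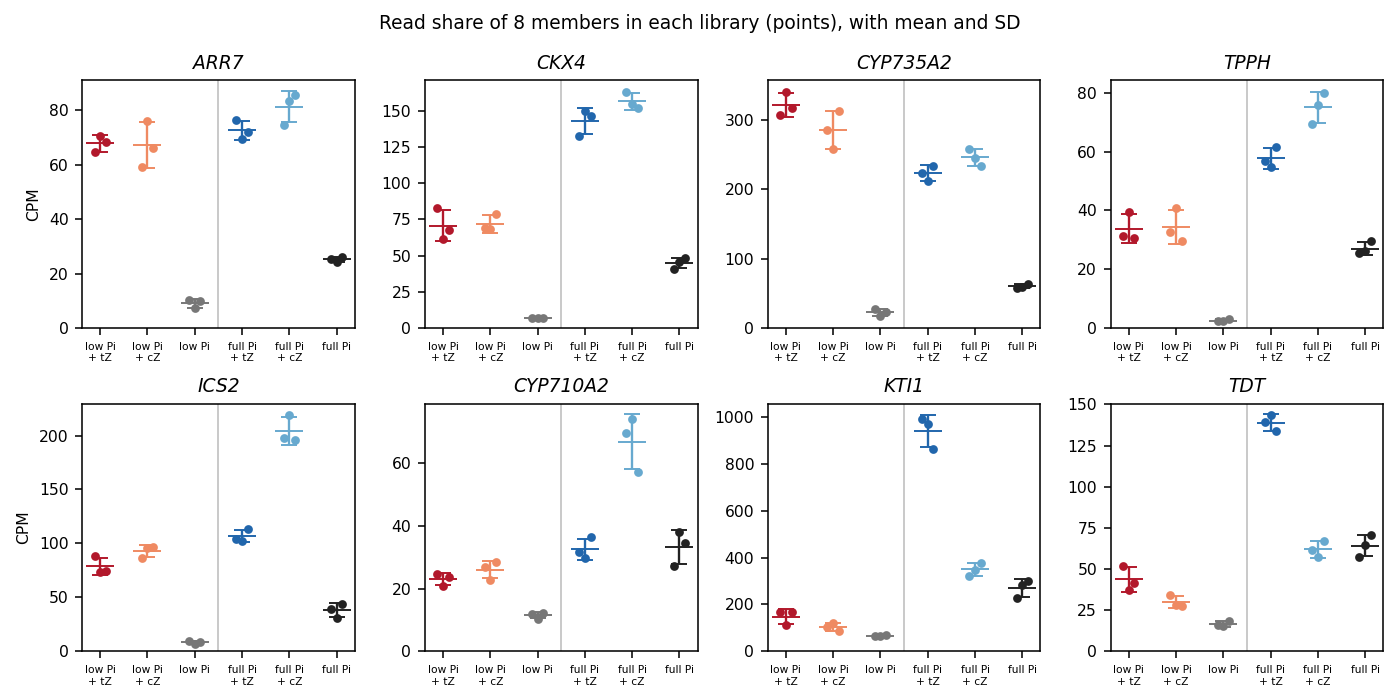
CPM in each library (points) with the mean and SD of the group (lines, n = 3), on linear axes from 0, for ARR7, CKX4, CYP735A2, TPPH, ICS2, CYP710A2, KTI1 and TDT. Untreated low phosphate is the lowest group in each panel, and KTI1 and TDT stand out under trans-zeatin in full phosphate.

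The share of the loss that a zeatin made up was the gain over untreated low-phosphate roots as a percentage of the difference between untreated full- and low-phosphate roots, on log2(CPM + 1). Its median was 91.2% with trans-zeatin (19.9% to 273%) and 85.6% with cis-zeatin (16.6% to 261%). At least 100% was reached by 21 genes with trans-zeatin, 19 with cis-zeatin and 17 with both, and less than 50% by 3 with trans-zeatin, 11 with cis-zeatin and 3 with both. Shares were higher with trans-zeatin in 35 genes and with cis-zeatin in 16. These shares rest on the values that chose the genes and are not tested.

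At the upper end stood 5 genes that both isomers put at least 1 (log2) above untreated full-phosphate roots: CYP735A2, ARR7, CYP710A4, ICS2 and APK4. CYP710A4, of a family of sterol side-chain desaturases, had 19.1, 12.9 and 14.5 CPM with trans-zeatin and 14.2, 17.1 and 15.6 CPM with cis-zeatin in low phosphate, against 1.27, 0.568 and 1.09 CPM in untreated low-phosphate and 2.81, 3.45 and 4.42 CPM in untreated full-phosphate roots. Of its 50-base stretches 17.7% are shared with 1 or more other genes in the reference, its neighbour CYP710A3 sharing the most, so reads of these genes may be mixed. ICS2, an isochorismate synthase at the branch to salicylate and phylloquinone, had 88.2, 73.8 and 74.2 CPM with trans-zeatin and 86.9, 95.3 and 96.9 CPM with cis-zeatin in low phosphate, against 9.28, 7.10 and 8.98 CPM in untreated low-phosphate and 38.9, 31.2 and 44.1 CPM in untreated full-phosphate roots. For APK4, an adenosine phosphosulfate kinase of sulfur metabolism, the shares were 236% with trans-zeatin and 204% with cis-zeatin.

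At the lower end, GRP3S, a glycine-rich protein of the cell wall family, had the largest loss (-4.14) and the smallest regained shares (19.9% with trans-zeatin, 16.6% with cis-zeatin). It had 7.32, 7.05 and 10.7 CPM with trans-zeatin and 5.97, 6.90 and 9.68 CPM with cis-zeatin in low phosphate, against 3.82, 4.35 and 4.68 CPM in untreated low-phosphate and 90.2, 108 and 78.9 CPM in untreated full-phosphate roots. Every low-phosphate library, zeatin-treated or not, thus lay far below every full-phosphate one in this gene. The related GRP-3 regained 50% with trans-zeatin and 38.4% with cis-zeatin, and AT1G35830, which encodes a VQ-motif protein and overlaps an antisense gene, 41.1% and 35.0% in the same order. KTI1, a Kunitz trypsin inhibitor, regained 56.8% with trans-zeatin and 31.9% with cis-zeatin, and AT1G80180 50.6% and 39.5%.

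Among the genes with the most reads were MLP329, a major latex protein-like gene, with 490 to 622 CPM in low-phosphate trans-zeatin, 526 to 723 CPM in low-phosphate cis-zeatin, 289 to 338 CPM in untreated low-phosphate and 845 to 1038 CPM in untreated full-phosphate roots. LAC7, a laccase that oxidises phenolics in the wall, had 439 to 582 CPM, 355 to 492 CPM, 217 to 238 CPM and 498 to 513 CPM in those 4 groups. AT4G16260, a glycosyl hydrolase, had 236 to 333 CPM, 288 to 295 CPM, 178 to 211 CPM and 477 to 519 CPM. Only LAC7 of these 3 reached its untreated full-phosphate range in any low-phosphate zeatin library.

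**Figure D3:**
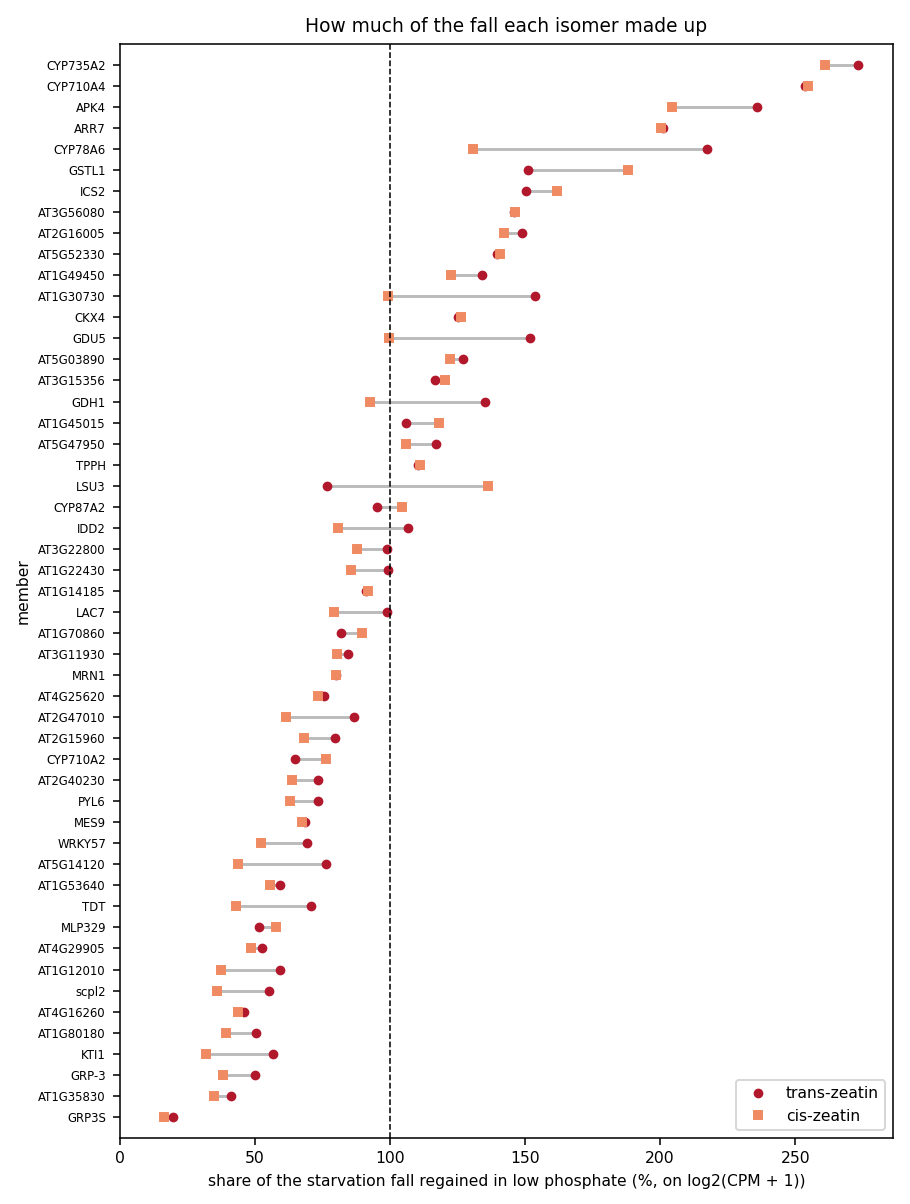
Share of the starvation loss made up in low phosphate by trans-zeatin (circles) and cis-zeatin (squares) for each gene, in percent on log2(CPM + 1), with the full-phosphate level at 100%. CYP735A2 is at the top (273% and 261%) and GRP3S at the bottom (19.9% and 16.6%).

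Genes just inside and just outside the rule differed little. The loss was -1.007 for LSU3 and -1.009 for AT3G15356, just inside, and -0.988 for AT5G38020 and -0.979 for AT2G26370, just outside. With cis-zeatin WRKY57 and AT4G16260 gained 0.581 and 0.602, against 0.566 for IGMT1 and 0.560 for AT5G57655 outside it. With trans-zeatin AT4G16260 and MES9 gained 0.631 and 0.742, against 0.549 for APR3 and 0.507 for AT1G26800. The lowest highest-group means were 6.85 CPM for AT2G47010 and 7.19 CPM for AT5G03890, against 4.68 CPM for AT5G51390 and 4.63 CPM for AT1G21400.

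Whether the 51 genes also answer zeatin where phosphate is ample was asked in full-phosphate roots, whose zeatin libraries the rule did not use. In full phosphate trans-zeatin raised 45 of the 51 (88.2%) and cis-zeatin raised 40 (78.4%), and neither lowered any, at an adjusted p under 0.05 in edgeR's quasi-likelihood test with Benjamini-Hochberg adjustment over 19982 genes. Over all genes tested, 24.2% were raised and 25.3% lowered by trans-zeatin, and 12.7% raised and 13.5% lowered by cis-zeatin. The median log2 fold change of the 51 was 1.13 with trans-zeatin and 0.78 with cis-zeatin, against -0.00 and -0.03 over all genes, and 29 genes with trans-zeatin and 18 with cis-zeatin were raised at least 2-fold. At an unadjusted p under 0.05 in edgeR, trans-zeatin lowered 1 gene and cis-zeatin 0, and DESeq2 called 0 lowered for either. Both isomers raised 36 genes, trans-zeatin alone passed the test in 9, cis-zeatin alone in 4 and neither in 2. The 2-fold counts and these joint counts were not made over all genes. Untreated full-phosphate libraries are shared by these contrasts and entered the rule, which favours genes that are high in them and so works against a rise. The rule also required a gain with both zeatins in low phosphate, which favours genes that zeatin raises. Of genes at 5 CPM or more, 4.12% had such a gain. Their shares in full phosphate were not counted, so nothing is read from the shares of the 51 against those of all genes.

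By role, the cytokinin genes all rose with both isomers. CYP735A2 rose by 1.99 ± 0.11 with trans-zeatin (log2 ± SE, adjusted p 1.18e-11) and by 2.09 ± 0.11 with cis-zeatin (adjusted p 1.18e-11), CKX4 by 1.77 ± 0.10 and 1.87 ± 0.11, and ARR7 by 1.62 ± 0.10 and 1.75 ± 0.10 in that order. TPPH rose by 1.19 ± 0.11 with trans-zeatin and 1.53 ± 0.11 with cis-zeatin. The 5 largest rises with trans-zeatin were those of CYP710A4 (2.34 ± 0.19), AT2G15960, annotated as stress-induced (2.29 ± 0.13), AT1G30730, a berberine-type FAD oxidase (2.22 ± 0.09), APK4 (2.18 ± 0.14) and CYP78A6, a cytochrome P450 that promotes organ growth (2.12 ± 0.14). With cis-zeatin they were those of CYP710A4 (2.81 ± 0.19), ICS2 (2.49 ± 0.12), CYP735A2, AT2G16005, a lipid-recognition protein (2.06 ± 0.13), and AT3G56080, a methyltransferase-like gene (1.96 ± 0.12).

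PYL6, an abscisic acid receptor, was the one gene whose highest group mean was in untreated full-phosphate roots. It had 33.2, 31.6 and 31.9 CPM with trans-zeatin and 39.9, 36.1 and 34.9 CPM with cis-zeatin, against 41.6, 41.6 and 42.4 CPM untreated, and its log2 fold changes of -0.28 ± 0.13 with trans-zeatin (adjusted p 0.0678) and -0.12 ± 0.12 with cis-zeatin (adjusted p 0.563) did not pass the test. AT1G35830 passed with neither isomer as well (0.06 ± 0.20 and 0.52 ± 0.20).

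**Figure D4:**
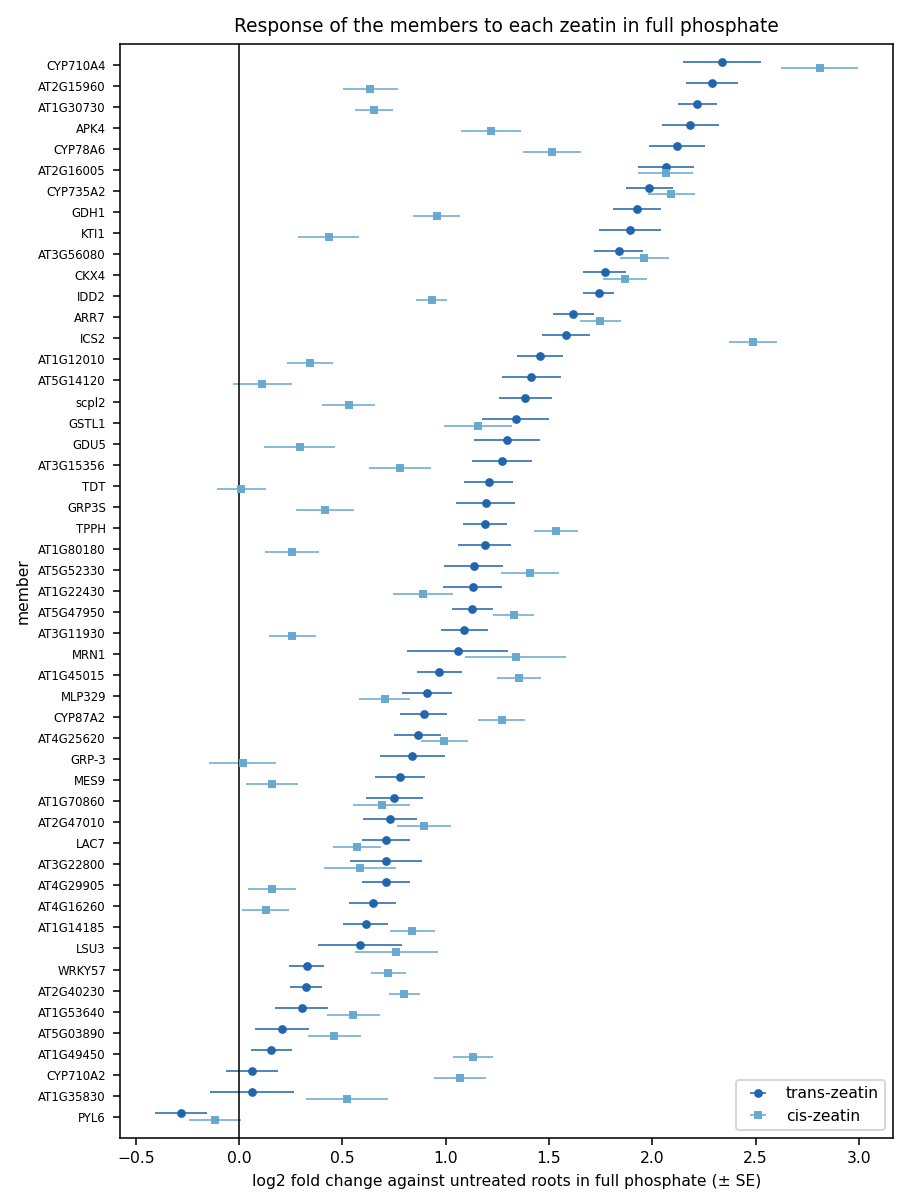
Log2 fold change (± SE) of each gene in full phosphate with trans-zeatin (circles) and cis-zeatin (squares) over untreated roots. Most points lie right of 0, and PYL6 at the bottom lies left of it.

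Most of the genes were also lower in low than in full phosphate when zeatin was present. Under trans-zeatin 45 of 51 were lower and 2 higher in low than in full phosphate (88.2% and 3.92%), where 31.3% and 32.7% of all genes were, and under cis-zeatin 44 were lower and 0 higher (86.3%), where 24.4% and 24.8% of all genes were. Medians were -1.08 under trans-zeatin and -1.14 under cis-zeatin, against 0.02 and 0.00 over all genes. In 41 genes low phosphate lowered the level under both isomers, a count that was not made over all genes. At an unadjusted p under 0.05 edgeR called 0 higher under cis-zeatin, and DESeq2 also called 0. Selection of genes lowered in untreated roots used other libraries for the full-phosphate side, but the low-phosphate zeatin libraries entered the rule. The rule also required a loss in untreated low-phosphate roots, and the other lowered genes were not counted under zeatin. Nothing is therefore read from the shares of the 51 against those of all genes. Without the second low-phosphate trans-zeatin library 44 genes were lower and 2 higher under trans-zeatin, and without the second low-phosphate cis-zeatin library 45 were lower and 0 higher under cis-zeatin.

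The 2 genes higher in low phosphate under trans-zeatin were CYP735A2 (0.45 ± 0.11, adjusted p 0.00114) and AT1G49450, a WD40-repeat protein (0.31 ± 0.10, adjusted p 0.00763). AT1G49450 no longer passed without the first low-phosphate trans-zeatin library (0.24, adjusted p 0.0506). For ARR7 the difference was -0.18 ± 0.09 under trans-zeatin (adjusted p 0.103) and -0.29 ± 0.09 under cis-zeatin (adjusted p 0.0129). The ARR7 call under cis-zeatin was lost without the third full-phosphate cis-zeatin library (-0.26, adjusted p 0.0535) or the first low-phosphate one (-0.22, adjusted p 0.0725 in edgeR). CKX4 had -1.09 ± 0.10 under trans-zeatin and -1.14 ± 0.10 under cis-zeatin, and TPPH -0.86 ± 0.10 and -1.14 ± 0.10 in that order, all past the threshold. GRP3S fell furthest, with -4.64 ± 0.17 under trans-zeatin and -3.99 ± 0.17 under cis-zeatin, and had 230, 173 and 190 CPM in full-phosphate trans-zeatin roots and 106, 132 and 115 CPM in full-phosphate cis-zeatin roots. Next under trans-zeatin came scpl2, a serine carboxypeptidase-like gene (-2.92), AT2G15960 (-2.77), KTI1 (-2.73) and AT1G12010, an oxygenase of the ACC-oxidase type (-2.59). Under cis-zeatin the next were scpl2 (-2.76), AT1G12010 (-2.09), AT1G35830 (-1.98) and KTI1 (-1.75). In the reference 36.8% of the 50-base stretches of scpl2 are shared with 1 or more other genes, scpl1 sharing the most, so reads of these genes may be mixed.

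The isomers, given at the same dose for the same time, differed in full phosphate for 29 of the 51 genes. Trans-zeatin left 20 genes higher than cis-zeatin (39.2%, where 20.7% of all genes were) and 9 lower (17.6%, where 20.5% were), and the median difference was 0.06. Neither group entered the rule, but the rule favours genes that zeatin raises. Isomer differences among such genes were not counted, so nothing is read from these shares against those of all genes. Leading on the trans side were AT2G15960 (1.65 ± 0.12, adjusted p 2.55e-09), AT1G30730 (1.56 ± 0.09), KTI1 (1.46 ± 0.15), AT5G14120, a transporter-like protein of the major facilitator family (1.30 ± 0.14), and TDT, the tonoplast malate transporter (1.2 ± 0.12). Leading on the cis side were CYP710A2, a sterol desaturase (-1.01 ± 0.12, adjusted p 2.31e-06), AT1G49450 (-0.98 ± 0.10), ICS2 (-0.90 ± 0.11), AT2G40230, an acyltransferase (-0.47 ± 0.08), and CYP710A4 (-0.47 ± 0.15, adjusted p 0.0183). The CYP710A4 call was lost without the third full-phosphate cis-zeatin library (-0.39, adjusted p 0.0848) or without the first or second full-phosphate trans-zeatin library (-0.39 and -0.43, adjusted p 0.0902 and 0.0684 in edgeR).

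AT2G15960 had 45.7, 50.3 and 55.0 CPM with trans-zeatin and 15.1, 16.5 and 17.6 CPM with cis-zeatin in full phosphate, against 9.62, 10.8 and 12.6 CPM in untreated roots. In low phosphate it had 6.85, 7.93 and 8.54 CPM with trans-zeatin and 5.32, 8.05 and 5.66 CPM with cis-zeatin, against 1.23, 1.56 and 1.84 CPM untreated. The isomers were apart in full phosphate and overlapped in low phosphate. TDT had 140, 144 and 134 CPM with trans-zeatin and 61.7, 57.1 and 67.2 CPM with cis-zeatin, against 57.4, 64.8 and 70.6 CPM untreated in full phosphate, so cis-zeatin and untreated libraries overlapped while trans-zeatin stood clear. CYP710A2 had 31.7, 29.7 and 36.3 CPM with trans-zeatin and 69.7, 74.1 and 57.1 CPM with cis-zeatin, against 27.3, 38.1 and 34.7 CPM untreated, the reverse pattern. Its response to trans-zeatin was 0.06 ± 0.13 (adjusted p 0.713) and its response to cis-zeatin 1.07 ± 0.12 (adjusted p 9.34e-07).

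The 20 genes on the trans side responded to cis-zeatin in full phosphate with a median of 0.38, against 1.34 with trans-zeatin, and in low phosphate they regained a median of 73.7% with trans-zeatin and 58.1% with cis-zeatin. They include the nitrogen and carbon genes GDH1, a glutamate dehydrogenase, GDU5, a glutamine dumper protein, and TDT, and both glycine-rich genes GRP3S and GRP-3. The 9 on the cis side (TPPH, CYP87A2, AT1G45015, WRKY57, CYP710A4, AT2G40230, ICS2, AT1G49450 and CYP710A2) regained medians of 106% with trans-zeatin and 111% with cis-zeatin. Among the 22 that did not pass were CYP735A2 (-0.11 ± 0.11), CKX4 (-0.10 ± 0.10) and ARR7 (-0.13 ± 0.09). For 20 of these 22 the 95% interval of the isomer difference lay within 0.58 either way. The lowest end of an interval was -0.87, for AT1G35830, and the highest was 0.53, for AT1G22430.

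In low phosphate trans-zeatin left 9 of the 51 genes higher than cis-zeatin (17.6%, where 1.35% of all genes were) and 0 lower (1.42% of all genes were), with a median of 0.10. At an unadjusted p under 0.05 edgeR called 11 higher and 3 lower, and DESeq2 called 10 higher and 1 lower after adjustment. The 9 were CYP78A6 (1.04 ± 0.13, adjusted p 0.000185), GDU5 (0.90 ± 0.16, adjusted p 0.00434), scpl2 (0.69 ± 0.17, adjusted p 0.0315), AT5G14120 (0.61 ± 0.14, adjusted p 0.0256), AT1G12010 (0.61 ± 0.13, adjusted p 0.0143), AT1G30730 (0.57 ± 0.09), TDT (0.52 ± 0.12), GDH1 (0.45 ± 0.11) and IDD2, a zinc-finger regulator (0.33 ± 0.08). All 9 were also on the trans side in full phosphate, which is 100% of the 9 and 45% of those 20. The comparisons share no libraries, but this overlap was not counted over all genes, so nothing is read from it. Each isomer had to pass the rule by its own margin in low phosphate, so genes raised by trans-zeatin only could not be here. That requirement sets a floor for each gain but no upper limit, and the libraries compared here entered the rule. Nothing is therefore read from the shares against those of all genes. Fitted with the 6 low-phosphate zeatin libraries alone, 2 were called higher, and without the first low-phosphate trans-zeatin or the third low-phosphate cis-zeatin library 4 were, without the third trans-zeatin library 5. Of 12 alternative fits, scpl2 lost the call in 5, AT5G14120 and AT1G12010 in 3 each, GDU5 in 1 and CYP78A6 in 0. Leaving out the 2 libraries that stood apart from their replicates gave 6 higher without the cis-zeatin one and 9 without the trans-zeatin one, with 0 lower in either fit.

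CYP78A6 had 9.49, 10.4 and 10.4 CPM with trans-zeatin and 4.38, 4.66 and 5.38 CPM with cis-zeatin in low phosphate, against 1.08, 0.852 and 1.61 CPM untreated. The 3 groups did not overlap. GDU5 had 7.65, 6.87 and 7.20 CPM with trans-zeatin and 2.94, 5.12 and 3.32 CPM with cis-zeatin, against 0.566, 0.615 and 0.946 CPM untreated, also without overlap. Of the 42 genes that did not pass, 34 had a 95% interval of the isomer difference within 0.58 either way and 41 within 1. This leaves room for differences of up to about that size. The lowest end of an interval was -1.13, for LSU3, a low-sulfur response gene, and the highest end of any was 0.788. ARR7 differed by -0.01 ± 0.09 and CKX4 by -0.05 ± 0.10, TPPH by -0.06 ± 0.11 and CYP735A2 by 0.15 ± 0.11.

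Whether the isomer difference itself depends on phosphate was tested as (trans minus cis in low phosphate) minus (trans minus cis in full phosphate). It was positive for 5 genes (9.8%, where 8.61% of all genes were) and negative for 15 (29.4%, where 9.74% of all genes were). The low-phosphate zeatin libraries of this test entered the rule, which left out the 30 lowered genes that gained 0.58 with trans-zeatin only and the 2 that did so with cis-zeatin only. The interaction values of the genes left out were not counted, so nothing is read from these shares against those of all genes. Negative values led with AT2G15960 (-1.39 ± 0.19, adjusted p 9.02e-05), AT1G30730 (-0.99 ± 0.13) and KTI1 (-0.98 ± 0.21), whose trans-side excess was smaller in low phosphate. Positive values were those of AT1G49450 (1.1 ± 0.14, adjusted p 2.54e-05), CYP710A2 (0.81 ± 0.18), ICS2 (0.64 ± 0.15), AT2G40230 (0.60 ± 0.11) and WRKY57, a WRKY transcription factor (0.56 ± 0.12), which lay on the cis side in full phosphate. Without the second full-phosphate cis-zeatin library 9 genes were negative. Without the second low-phosphate cis-zeatin library 6 were positive and 10 negative, and without the second low-phosphate trans-zeatin library 5 and 11. Across the 51 genes the isomer difference in low phosphate ran with that in full phosphate (Pearson r 0.622, Spearman rho 0.634, 51 genes of the same 12 libraries, no p), with the same sign in 35. No such values were computed over all genes, and the low-phosphate libraries entered the rule, so this is not read as a trait of the 51.

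**Figure D5:**
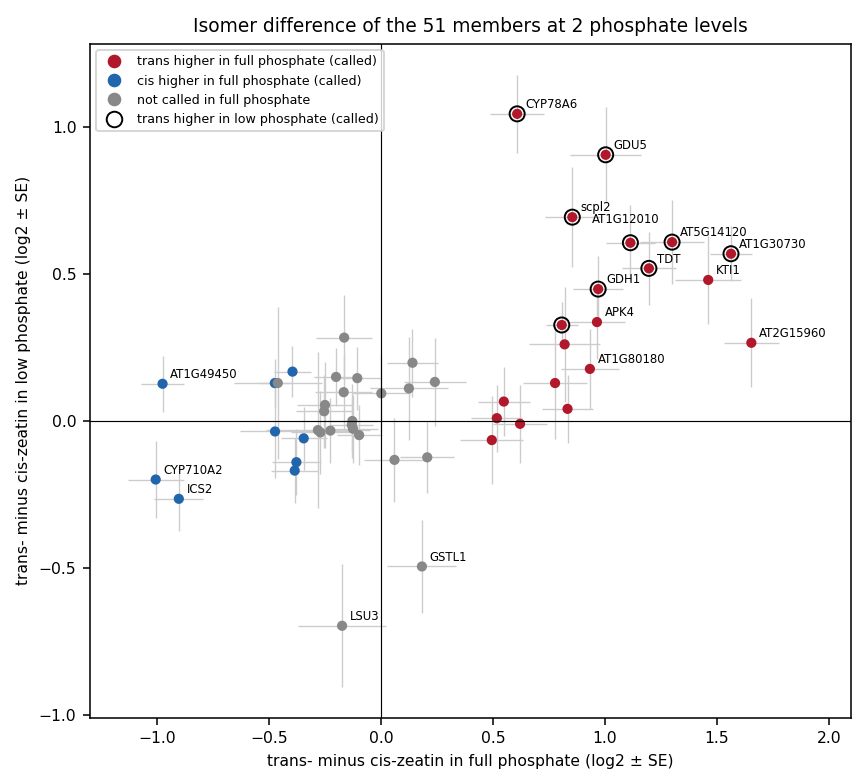
Trans minus cis difference (log2) of each gene in full phosphate on the horizontal axis and in low phosphate on the vertical axis. CYP78A6 and GDU5 stand highest, and AT2G15960 lies furthest right with a low-phosphate difference of 0.27. Grey lines are SE, colours mark the isomer called higher in full phosphate and rings those called in low phosphate.

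The rest of the cytokinin pathway shows which relatives met only part of the rule. Of 9 type-A response regulators at 5 CPM or more, 8 gained 0.58 with both isomers in low phosphate but only ARR7 was lowered by 1. In full phosphate 10 of 10 tested rose with trans-zeatin and 9 with cis-zeatin. Of 6 degradation and conjugation genes at that level 5 gained with both isomers and only CKX4 was lowered by 1, and in full phosphate 7 of 9 tested rose with each isomer. Of 6 synthesis genes 3 were lowered by 1 and 2 gained with both, CYP735A2 being the only one to do both; its relative CYP735A1 had a difference of -0.88 between untreated low and full phosphate and gained 1.01 with trans-zeatin and 1.24 with cis-zeatin, while the isopentenyltransferases IPT3 (-1.08) and IPT5 (-1.02) were lowered without a gain. In full phosphate 1 of 7 synthesis genes rose and 3 fell with trans-zeatin, and 2 rose and 3 fell with cis-zeatin. Over all genes tested there, 24.2% rose and 25.3% fell with trans-zeatin, and 12.7% rose and 13.5% fell with cis-zeatin.

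Of 8 trehalose-phosphate phosphatases at that level, 2 were lowered by 1 and 2 gained with both isomers, TPPH doing both. TPPJ gained 3.19 with trans-zeatin and 2.72 with cis-zeatin after a loss of -0.40. In full phosphate 2 of 9 tested rose and 5 fell with trans-zeatin, whereas 4 rose and 2 fell with cis-zeatin, and 7 were lower with trans-zeatin than with cis-zeatin. Of all genes tested, 24.2% rose and 25.3% fell with trans-zeatin, and 12.7% rose and 13.5% fell with cis-zeatin. The share lower with trans-zeatin than with cis-zeatin was 20.5%.

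Genes of 9 other lists were counted by the same contrasts. Lowered genes and genes that gained were counted apart, and no gene on these lists met the whole rule. Of all 15841 genes at 5 CPM or more, 2.41% were lowered by 1 and 4.12% gained with both isomers. Of 15 iron acquisition genes at 5 CPM or more 8 were lowered by 1 and 1 gained with both isomers; of 8 copper genes 4 were lowered and 0 gained; of 25 nitrate genes 5 were lowered and 0 gained; and of 13 sulfate genes 2 were lowered and 1 gained. Of 7 photosynthesis genes 4 were lowered and 0 gained, of 5 photorespiration genes 2 and 1, of 6 tonoplast aquaporins 1 and 0, of 5 cytokinin response factors 0 and 1, and of 10 root markers 0 and 1. The lists were not tested for the rule's contrasts.

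The genes lie on all chromosomes, with 17 on chromosome 1, 11 on chromosome 2, 7 on chromosome 3, 6 on chromosome 4 and 10 on chromosome 5. The closest neighbours among them were AT2G15960 and AT2G16005, 3 genes apart, KTI1 and scpl2, 4 genes apart, and GRP3S and GRP-3, 9 genes apart. In the reference 11 of the 51 share at least 1 stretch of 50 bases with another gene and 6 overlap another gene, and no source used here gives the strandedness, so reads from such shared or overlapping stretches cannot be told apart. The shared stretches make up 7.05% to 36.8% of the gene in GDH1, AT1G35830, CYP710A4 and scpl2, and 0.741% to 2.01% in the other 7. The deposited read report gives different numbers of discarded reads for different groups: full-phosphate untreated and trans-zeatin libraries had 81544 to 85178 reads discarded for undetermined bases, full-phosphate cis-zeatin, untreated low-phosphate and 1 low-phosphate trans-zeatin library 22738 to 25354, and the remaining low-phosphate zeatin libraries 40794 to 58614. Full-phosphate trans-zeatin against untreated lies within 1 such range, and 45 genes rose there. Cis-zeatin against untreated, and trans- against cis-zeatin, in full phosphate lie across ranges. So do low against full phosphate under either zeatin and without zeatin, and cis-zeatin against untreated in low phosphate. Trans-zeatin against untreated in low phosphate shares a range in 1 trans-zeatin library only. The test of the isomer difference by phosphate draws on all 3 ranges. Range and group cannot be told apart for these; without the first low-phosphate trans-zeatin library the isomer comparison in low phosphate lies within 1 range, and 4 genes were higher and 1 lower.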

How the data were processed

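Poly(A) RNA-seq of 18 root libraries was analysed. The deposited gene table holds counts per gene; its name speaks of normalized values, but the authors' numbers are whole and behave as raw counts. CASAVA 1.4, FastQC, HISAT2, HTSeq and edgeR are named in the submitters' processing notes, and no source used here gives the genome build. The deposited read report, whose other values are reads per library, was used only for reads discarded. CPM was computed from column totals. Of 24653 genes with a read, 24500 matched RefSeq TAIR10.1, which gave names and promoters.

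The filter filterByExpr (minimum count 10) passed 19982 genes, all 51 members among them; libraries were scaled by TMM and tested, 2-sided, with edgeR 4.0.16 (glmQLFit, glmQLFTest, R 4.3.3), all 18 libraries in 1 fit, Benjamini-Hochberg threshold 0.05. The common biological coefficient of variation was 8.48%. The script was tested on simulated data. The members and the 13 gene lists were chosen with earlier results of these data known. Named were members on a list, those extreme in level, loss or regained share, and the 5 largest changes each way per tested contrast; other genes were named after their values were seen. Alternatives were DESeq2 1.42.0, other filters and scaling, only the compared groups, a replicate block, other thresholds and leaving out each library.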

Additional observations from a re-analysis of the deposited data

Results flagged for a closer look

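The difference between the isomers depended on phosphate, by the interaction test in edgeR with Benjamini-Hochberg adjustment, for 5 genes in the positive and 15 in the negative direction, where 8.61% and 9.74% of all genes tested were. The rule required a gain with both isomers in low phosphate. This left out more genes that gained with trans-zeatin only than with cis-zeatin only, and the interaction values of those genes were not counted. Nothing is therefore read from these shares against those of all genes. A positive value means that trans minus cis was greater in low than in full phosphate. The positive values were 1.1 for AT1G49450, 0.81 for CYP710A2, 0.64 for ICS2, 0.60 for AT2G40230 and 0.56 for WRKY57. Each of these 5 was lower with trans-zeatin than with cis-zeatin in full phosphate, and none passed the test between the isomers in low phosphate.

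The 5 largest negative values were -1.39 for AT2G15960, -0.99 for AT1G30730, -0.98 for KTI1, -0.79 for AT3G11930 and -0.76 for AT1G80180. Each was higher with trans-zeatin in full phosphate, and of these 5 only AT1G30730 was also called higher with trans-zeatin in low phosphate. What sets the difference was not tested.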

How the results depend on the processing

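Fitted with only the compared groups, 2 members were higher with trans- than cis-zeatin in low phosphate (9 in the full fit), 16 lower in full phosphate (9 in the full fit) and 1 lower with trans-zeatin than untreated in full phosphate, as also with the replicate block (1). DESeq2 called 1 lower with trans- than cis-zeatin in low phosphate. With both gains at least 1, 31 members met the rule.

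Leaving out each library gave 47 to 61 members, 34 of them under every omission, and 40 of the 51 remained without the second untreated low-phosphate library. Called counts ran, in full phosphate, from 44 to 45 higher and 0 to 0 lower with trans-zeatin, 36 to 39 and 0 to 0 with cis-zeatin, and 20 to 20 higher and 7 to 10 lower with trans against cis. In low phosphate trans against cis gave 4 to 9 higher and 0 to 1 lower. Low against full phosphate gave 1 to 2 higher and 44 to 46 lower under trans-zeatin, 0 to 0 and 43 to 45 under cis-zeatin, and the interaction 5 to 6 and 9 to 15.

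Near 0, signs turned when a library was left out: CKX4 ran from -0.1994 to 0.0693 for trans against cis in low phosphate and from -0.1012 to 0.1674 for the interaction, TPPH from -0.1599 to 0.0757 and ARR7 from -0.0845 to 0.0819 for trans against cis in low phosphate. Of 960 values for named genes, 934 kept direction and side of the threshold, 18 lost the call, 2 gained it and 6 turned sign; the cause was not tested. Replicate numbers did not pair the libraries (r from -0.184 to 0.108), and the block changed no other count by over 1.5 times. At this depth and spread, small isomer differences may be missed.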
